A study of Mus musculus with 6 samples.

Results

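The genes described here are 10 receptors by which melanoma cells hold on to matrix and to each other: the integrin subunits Itgb1, Itgb3, Itga4, Itga5, Itga6 and Itgav, the immunoglobulin-superfamily molecules Mcam, Alcam and L1cam, and the hyaluronan receptor Cd44. They were taken by name, without regard to their values, and all 10 were found among the 39179 genes counted. Their RNA was measured in cultured B16-F10, a metastatic melanoma line from the C57BL/6 mouse, carrying either a knockout of Sirpa (labelled Sirpa-KO, 3 libraries) or the intact gene (labelled Sirpa-WT, 3 libraries). Sirpa encodes SIRPα, a membrane receptor for CD47, and the comparison asks how its loss goes with steady-state expression in the tumour cells. The labels name no clone, edit or treatment, give tumour as the source and another name for the line than the series text does, and are silent on whether each replicate was its own culture. The p-values therefore measure only the spread between these libraries. Fewer cells that express a gene and less RNA per cell cannot be told apart in such bulk libraries.

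Integrins are receptors made of 1 α and 1 β chain that bind matrix proteins outside the cell and, through talin and kindlin, the actin cytoskeleton inside it. The β chain Itgb1 pairs with many α chains: with Itga4 it forms the receptor VLA-4 for VCAM-1 and fibronectin, with Itga5 the main fibronectin receptor, and with Itga6 a laminin receptor. Itgav pairs with several β chains, Itgb3 and Itgb5 among them, to bind vitronectin and other RGD-bearing ligands. MCAM was first described in human melanoma, where it is linked to invasive growth. ALCAM and L1CAM mediate contacts between cells, and CD44 binds hyaluronan.

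Depth and one library limit what can be read. Total counts were 29877270 in Sirpa-KO replicate 1 (the deep library), 338824 and 367667 in Sirpa-KO replicates 2 and 3, and 343808 to 411695 in Sirpa-WT, so that 1 count in a shallow library is worth 2.43 to 2.95 CPM (counts scaled to a common library total). Pearson's r of log2 CPM across 5510 genes, which are not independent replicates, lay at 0.914 to 0.942 for pairs of shallow libraries, but at 0.061 to 0.134 where 1 of the pair was the deep one. The deep library's log2 ratio to the shallow ones is its log2 CPM less the mean of theirs. Genes far lower in the deep library were mostly not protein-coding. Of 171 genes with a ratio of -7 to -6.5, for example, 11 were protein-coding. An r over protein-coding genes alone was not worked out. The results of the tested members are given over all 6 libraries and over the 5 shallow ones. Sirpa itself had 1584, 6 and 6 counts in Sirpa-KO replicates 1 to 3, against 12, 7 and 3 counts in Sirpa-WT, or 53.0, 17.7 and 16.3 CPM in Sirpa-KO against 29.2, 20.4 and 8.68 CPM in Sirpa-WT. The library labelled Sirpa-KO replicate 1 thus held more Sirpa RNA in CPM than any Sirpa-WT library. This goes against its label only as far as the knockout lowers the transcript, and the labels do not say which part of the gene was altered. Protein-coding genes in general also stood higher there. Over those tested, the median log2 ratio of CPM to the mean of the shallow libraries was 0.96. In the shallow libraries the ratio was 0.850 (exact 95% interval 0.383 to 1.79). Sirpa RNA therefore does not bear out the labels, and Sirpa-KO and Sirpa-WT stand throughout for libraries labelled so. All 10 listed melanocyte markers were detected in every library. They summed to 12740 to 16020 CPM in Sirpa-KO libraries and 16130 to 19250 CPM in those labelled Sirpa-WT. Of the 9 tested over 5 libraries, edgeR called 3 lower and none higher, where it called 4.52% of all genes lower. The 3 were Dct (log2 fold change -1.02, edgeR adjusted p = 6.34e-32), Mitf (-0.76, 2.42e-06) and Pmel (-0.48, 0.00154). Over 6 libraries edgeR called none of the 9. What part this fall had in the results was not tested. Of the 12 leukocyte, 8 endothelial and 8 fibroblast markers, no list exceeded 32.6 CPM summed in any library, with sums of 6.69 to 32.6, 0 to 15.2 and 2.95 to 13.6 CPM across Sirpa-KO libraries and 9.72 to 29.1, 0 to 5.82 and 2.43 to 17.5 CPM across Sirpa-WT ones. Of the listed genes, Cd3e and Cdh5 were at 0 in all 6 libraries, and Ptprc and Pecam1 in the 5 shallow ones, but others were detected. Itgam, on the leukocyte list, had 3, 7 and 5 counts in Sirpa-WT replicates 1 to 3, where the list summed to 4, 10 and 6 counts. In Sirpa-KO replicates 2 and 3 it had 5 and 9 counts, of 5 and 12 for the list. The deep library had 454 endothelial and 332 fibroblast marker counts. The labels and file headers give no batch.

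Mcam and Itga4 were the members that rose in the shallow libraries labelled Sirpa-KO, each about 2-fold: Mcam by a log2 fold change of 0.92 and Itga4 by 1.04. Cd44 lay at 0.66 on the same scale and did not pass the test. Itgb1, the most abundant member, Itga6 and Itgav lay between -0.24 and 0.11 and did not pass. Itgb3, Itga5, Alcam and L1cam were too rare to pass the filter. Neither Mcam nor Itga4 was called once the trend on the deep library was removed (edgeR adjusted p = 0.0712 for Mcam and 0.178 for Itga4). Over the 5 shallow libraries, edgeR's quasi-likelihood test called 2 of the 10 members higher, none lower, and left 4 uncalled and 4 under the count filter, where 5.84% of 5510 genes were called, 1.32% higher and 4.52% lower. Over all 6 libraries the same test called none of the 10, and 0% of 5397 genes (344 at an unadjusted p under 0.05), with a biological coefficient of variation of 75.8% against 7.25% over 5 libraries; limma voom called Mcam alone of the members (adjusted p = 0.0434), where it called 23.8% of genes in either direction and 0.315% higher, and DESeq2 called no member and 0.0185% of genes. Over 5 libraries limma voom called Mcam and Itga4 as well (5.39% of genes, 1.31% higher), and DESeq2, which called 2.4% of genes, gave neither an adjusted p.

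**Figure D1:**
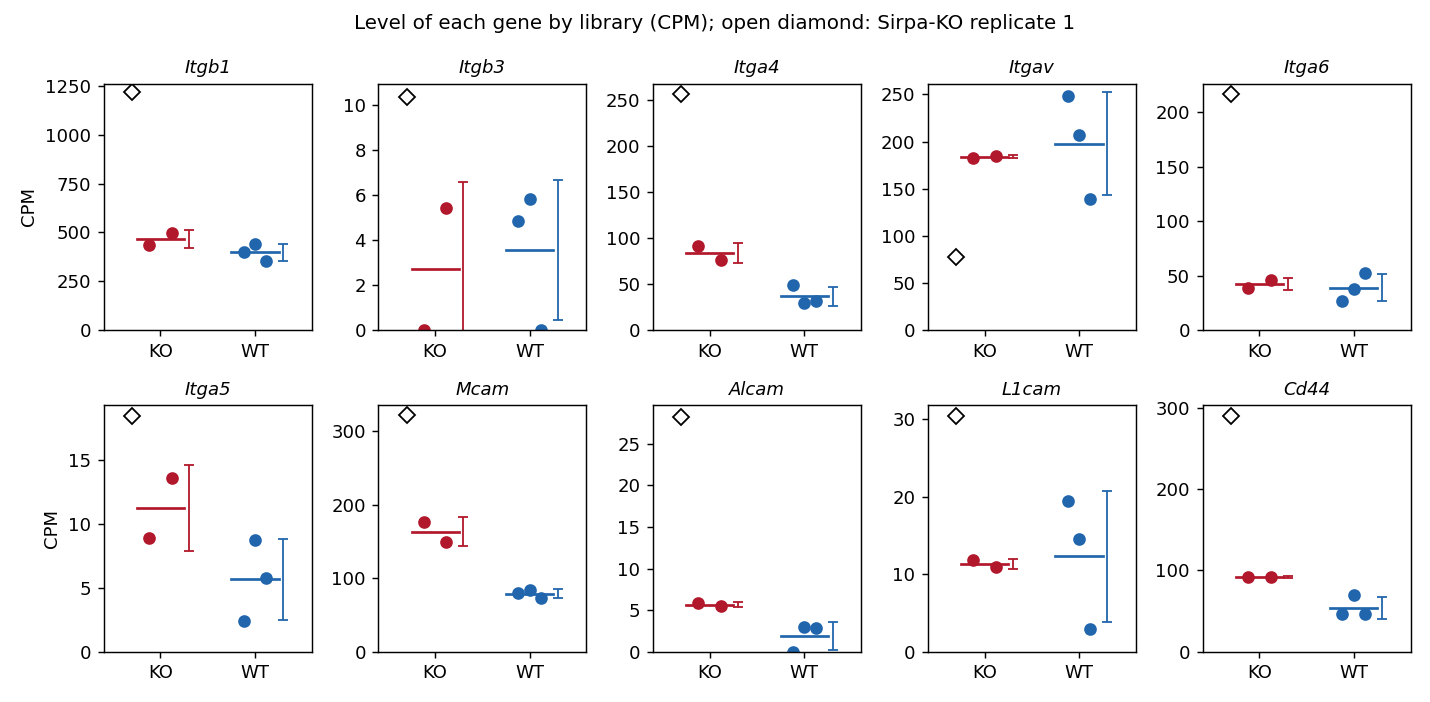
Level of each of the 10 genes in CPM (vertical axis, from 0, its own scale per panel) in the Sirpa-KO and Sirpa-WT libraries. Filled points are shallow libraries, lines their means and bars their SD (n = 2 Sirpa-KO, n = 3 Sirpa-WT); the open diamond is the deep library, Sirpa-KO replicate 1. Mcam, Itga4, Cd44, Itga5 and Alcam have every Sirpa-KO point above every Sirpa-WT point, the last 2 on at most 5 counts in a shallow library. Among all genes tested, 26.3% stood higher in this way over 5 libraries and 20.4% over 6. Itgav is the panel in which the deep library stands lowest.

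Itgb1 (ENSMUSG00000025809, GRCm38 chromosome 8, 128685654 to 128733200, plus strand), the shared β chain, had 1220 CPM in the deep library and 434 and 498 CPM in Sirpa-KO replicates 2 and 3, against 401, 439 and 353 CPM in Sirpa-WT. The deep library stood far above the rest, and the shallow libraries of the genotypes overlapped. Over 5 libraries its log2 fold change was 0.11 ± 0.14 (SE; edgeR adjusted p = 0.715), and over 6 it was 0.68 ± 0.48 (edgeR adjusted p = 0.579). Itgb3 (chromosome 11, 104608000 to 104670476, plus strand), the β chain of the vitronectin receptor, had 310, 0 and 2 counts in Sirpa-KO and 2, 2 and 0 in Sirpa-WT. Pooled over the shallow libraries, Sirpa-KO over Sirpa-WT came to 0.779 (exact 95% interval 0.0705 to 5.44), so a difference of several fold in either direction was not detectable at this depth.

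Among the α chains, Itga4 (ENSMUSG00000027009, chromosome 2, 79255426 to 79333123, plus strand) had 257, 91.5 and 76.2 CPM in Sirpa-KO replicates 1 to 3, against 48.6, 29.1 and 31.8 CPM in Sirpa-WT. Every Sirpa-KO library lay above every Sirpa-WT library. Its mean was 83.8 ± 10.8 CPM in Sirpa-KO replicates 2 and 3 (SD, n = 2) and 36.5 ± 10.6 CPM in Sirpa-WT (SD, n = 3). On the log2 scale the difference was 1.04 ± 0.30 over 5 libraries (SE; edgeR adjusted p = 0.0153), and over 6 libraries 1.79 ± 0.56 (edgeR adjusted p = 0.574). The rise rests on 31 and 28 counts, against 20, 10 and 11. It was not called (edgeR adjusted p) without Sirpa-KO replicate 2 (0.263), Sirpa-KO replicate 3 (0.0794), Sirpa-WT replicate 2 (0.0932) or Sirpa-WT replicate 3 (0.0504), nor without the count filter (0.0606). Of its exon bases, 8.04% overlap Cerkl on the opposite strand, which the unstranded counting does not tell apart, and Cerkl itself had at most 1 count in any shallow library. Of its 25-base words, 1393 of 13925 also occur in transcripts of other genes, where reads could be lost or shared.

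Itgav (ENSMUSG00000027087, chromosome 2, 83724397 to 83806916, plus strand), the α chain of the vitronectin receptors, had 77.8, 183 and 185 CPM in Sirpa-KO, against 248, 207 and 139 CPM in Sirpa-WT. Sirpa-KO replicates 2 and 3 fell within the Sirpa-WT range, and the deep library below it. The log2 fold change was -0.24 ± 0.19 (SE; edgeR adjusted p = 0.503) over 5 libraries and -0.56 ± 0.46 (edgeR adjusted p = 0.614) over 6. Itga6 (chromosome 2, 71745616 to 71858416, plus strand), the laminin-binding chain, had 217 CPM in the deep library and 38.4 and 46.2 CPM in Sirpa-KO replicates 2 and 3, against 26.7, 37.8 and 52.1 CPM in Sirpa-WT, and its shallow libraries overlapped (0.032 ± 0.36 over 5 libraries and 1.21 ± 0.75 over 6, SE; edgeR adjusted p = 0.973 over 5 and 0.574 over 6). Itga5 (chromosome 15, 103344289 to 103366763, minus strand), the fibronectin-binding chain, had 551, 3 and 5 counts in Sirpa-KO and 1, 3 and 2 in Sirpa-WT, a shallow ratio of 2.08 (exact 95% interval 0.632 to 7.27).

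**Figure D2:**
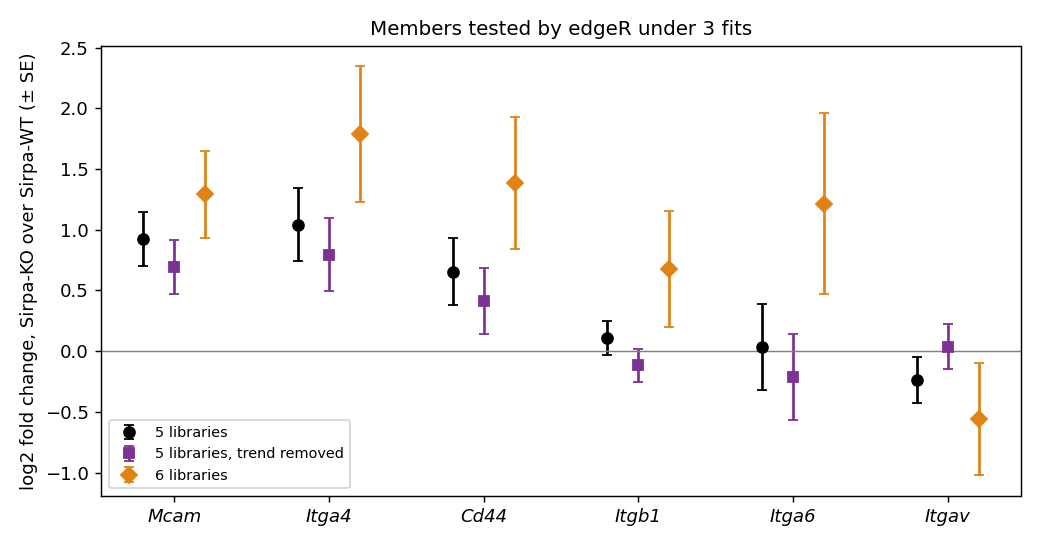
Log2 fold change of Sirpa-KO over Sirpa-WT (vertical axis, bars ± SE) for the 6 members that passed the count filter, from edgeR fits over the 5 shallow libraries, the same with the trend on the deep library removed, and all 6 libraries. Mcam and Itga4 lie highest over 5 libraries, at 0.92 and 1.04, and each member but Itgav is higher over 6 libraries, with wider errors.

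The make-up of the α chains was compared within each library, which does not depend on how libraries are scaled. Levels are in CPM per kb of annotated exon length (13.98 kb for Itga4, 10.74 for Itgav, 9.02 for Itga6, 4.38 for Itga5). Itga4 made up 34.1%, 21.9% and 17.6% of the summed level of the 4 α chains in Sirpa-KO replicates 1 to 3, against 11.6%, 7.57% and 10.2% in Sirpa-WT. Itgav made up 13.4%, 57.1% and 55.7% in Sirpa-KO, against 76.7%, 69.9% and 58.0% in Sirpa-WT. The ratio of Itga4 to Itgav was thus 2.54, 0.384 and 0.316 in Sirpa-KO and 0.151, 0.108 and 0.176 in Sirpa-WT, with no overlap between genotypes and by far the highest value in the deep library. This ratio was chosen after its values were seen and was not tested, and no share of other gene pairs without overlap was worked out. A within-library ratio still depends on trends that differ between genes. In the deep library's log2 ratio to the shallow ones, Itga4 stood at 2.35 and Itgav at -1.28. With the trend on that ratio removed, their log2 fold changes over 5 libraries were 0.79 and 0.036, neither called by edgeR. The summed α level relative to Itgb1 was 0.180, 0.281 and 0.253 in Sirpa-KO and 0.306, 0.255 and 0.258 in Sirpa-WT, so that in each library Itgb1 exceeded the 4 α chains together.

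**Figure D3:**
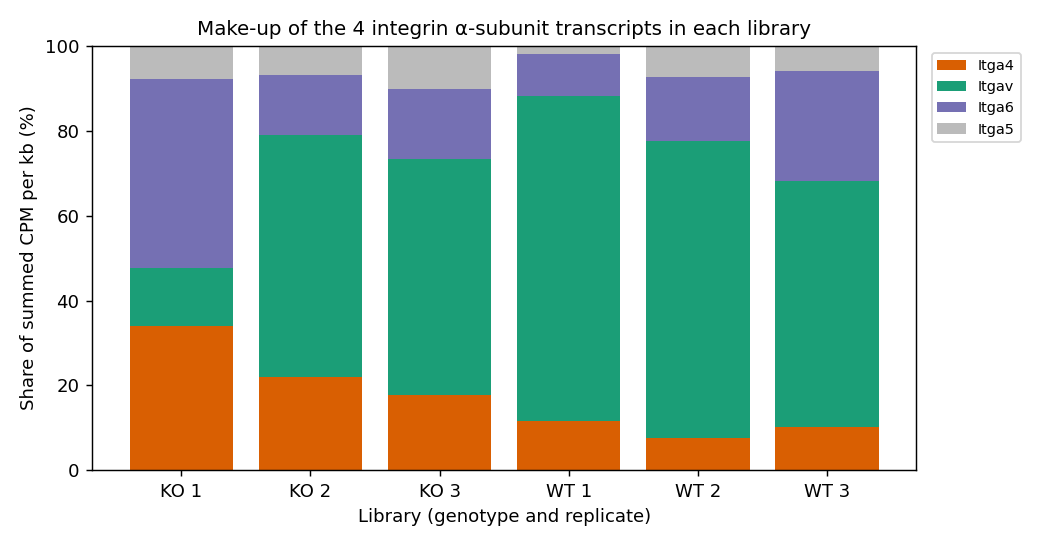
Share (vertical axis, %) of Itga4, Itgav, Itga6 and Itga5 in their summed CPM per kb, 1 bar per library with Sirpa-KO at the left. Itga4 takes 17.6% to 34.1% of the Sirpa-KO bars and 7.57% to 11.6% of the Sirpa-WT bars; Itgav is the largest share in all libraries but Sirpa-KO replicate 1, where Itga6 is.

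Mcam (ENSMUSG00000032135, chromosome 9, 44134469 to 44142727, plus strand), the melanoma cell adhesion molecule, had 323, 177 and 150 CPM in Sirpa-KO replicates 1 to 3, against 80.2, 84.4 and 72.4 CPM in Sirpa-WT. The genotypes did not overlap, and the Sirpa-WT libraries lay close together. Its mean was 163 ± 19.4 CPM in Sirpa-KO replicates 2 and 3 (SD, n = 2) and 79.0 ± 6.1 CPM in Sirpa-WT (SD, n = 3), from 60 and 55 counts against 33, 29 and 25. The log2 fold change was 0.92 ± 0.22 (SE; edgeR adjusted p = 0.00199) over 5 libraries and 1.29 ± 0.36 (edgeR adjusted p = 0.574) over 6. The call was lost without Sirpa-KO replicate 2 (edgeR adjusted p = 0.155), which leaves 1 shallow Sirpa-KO library assumed to vary like the others.

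L1cam (chromosome X, 73853778 to 73896105, minus strand), a neural cell adhesion molecule, had 909, 4 and 4 counts in Sirpa-KO and 8, 5 and 1 in Sirpa-WT, a shallow ratio of 0.891 (exact 95% interval 0.324 to 2.28). Alcam (chromosome 16, 52248996 to 52454074, minus strand), the CD6 ligand, had 843, 2 and 2 counts in Sirpa-KO and 0, 1 and 1 in Sirpa-WT, a shallow ratio of 3.12 (exact 95% interval 0.447 to 34.5). Neither shallow ratio could be told from 1 at this depth, and a fit without the filter gave the 4 rare members edgeR adjusted p-values of 0.798 to 0.942. Cd44 (ENSMUSG00000005087, chromosome 2, 102811141 to 102901665, minus strand) had 291, 91.5 and 92.5 CPM in Sirpa-KO, against 46.2, 69.8 and 46.3 CPM in Sirpa-WT, again without overlap. Its mean was 91.98 ± 0.69 CPM in Sirpa-KO replicates 2 and 3 (SD, n = 2) and 54.1 ± 13.6 CPM in Sirpa-WT (SD, n = 3), and a log2 change of 0.66 ± 0.28 (SE; edgeR adjusted p = 0.138) over 5 libraries and 1.39 ± 0.54 (edgeR adjusted p = 0.574) over 6.

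In all, 5 of the 10 members (Mcam, Itga4, Cd44, Itga5 and Alcam) had every Sirpa-KO library above every Sirpa-WT library in CPM, over 5 and over 6 libraries, the last 2 of them on at most 5 counts in a shallow library. None had every Sirpa-KO library below. Of the 6 tested members these were 3 (Mcam, Itga4 and Cd44). Among all genes tested, 26.3% stood higher in this way over 5 libraries and 20.4% over 6, and 11.8% and 10.2% lower. CPM takes the library total as it is: under TMM the median log2 fold change of all genes over 5 libraries was 0.013, and under library size alone 0.13, where Mcam stood at 1.04, Itga4 at 1.16 and Cd44 at 0.77 (edgeR adjusted p = 0.0616).

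Promoter sequence is shown for the 3 tested members whose genotypes did not overlap. RefSeq promoter windows (GRCm38.p6), which run from 250 bases before to 50 after a start, were found for 8 of the 10 members. The bases printed are those before the first annotated base of the gene in the files, 5′ to 3′ on the gene's strand, with CpG dinucleotides in capitals: chr9:44134408-44134468 (plus) for Mcam, chr2:79255176-79255425 (plus) for Itga4 and chr2:102901666-102901915 (minus) for Cd44.
Mcam: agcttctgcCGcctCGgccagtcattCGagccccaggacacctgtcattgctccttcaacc
Itga4: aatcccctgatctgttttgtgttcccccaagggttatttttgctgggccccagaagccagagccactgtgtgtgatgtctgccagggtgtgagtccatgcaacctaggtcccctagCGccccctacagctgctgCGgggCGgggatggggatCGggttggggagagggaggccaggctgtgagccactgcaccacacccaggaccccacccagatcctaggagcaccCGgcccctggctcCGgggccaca
Cd44: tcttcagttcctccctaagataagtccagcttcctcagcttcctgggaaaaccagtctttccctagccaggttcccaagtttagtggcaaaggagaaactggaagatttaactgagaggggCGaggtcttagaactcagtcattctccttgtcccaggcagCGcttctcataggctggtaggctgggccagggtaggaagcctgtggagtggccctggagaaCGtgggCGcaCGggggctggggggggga

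The 3 promoters differ in composition. Over the full 300-base windows, Mcam had 29 CpG, Itga4 10 and Cd44 6, where the median of 32851 windows was 7. The GC box GGGCGG, searched on both strands with overlaps counted, occurred 5 times in the Mcam window and once each in those of Itga4 and Cd44, and 35.7% of all windows held at least 1. The printed bases cover only part of each window. Those of Mcam (61 bases) held 3 CpG and 0 GC boxes, those of Itga4 6 and 1, and those of Cd44 5 and 0. The CRE half-site TGACG occurred 2 times in Mcam and in neither of the others (20.8% of all windows). The E-box CACGTG was in none of the 3 windows (7.15% of all windows). Nor was the variant E-box CATGTG (14.15% of all windows). The AP-1 site TGANTCA was absent from them too (7.81% of all windows). None of these letter strings was shared by the 3 other than the GC box. The GC box was not particular to them, being in every window found for the other members. It occurred 1 time each in Itgb1 and Itgav, 2 times each in Itga5 and Alcam, and 1 and 2 times in the windows of L1cam.

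Per kb of exon, the order of the members was Itgb1, Mcam, Itgav, Cd44, Itga4, Itga6, Itga5, L1cam, Alcam and Itgb3 in Sirpa-KO replicates 2 and 3, with means of 114, 48.8, 17.1, 13.6, 5.997, 4.69, 2.56, 1.54, 0.796 and 0.461 CPM per kb. In those 2 libraries each neighbouring pair had separate ranges except Alcam and Itgb3. For the rare members this says little, since Itga5 had 3 and 5 counts, L1cam 4 and 4 and Alcam 2 and 2. In Sirpa-WT the order was Itgb1, Mcam, Itgav, Cd44, Itga6, Itga4, L1cam, Itga5, Itgb3 and Alcam, with means of 97.5, 23.6, 18.4, 7.98, 4.31, 2.61, 1.67, 1.29, 0.603 and 0.272 CPM per kb. There the ranges separated Itgb1 from Mcam, Itgav from Cd44 and Cd44 from Itga6, and the other neighbours overlapped. Mcam relative to Itgb1 per kb was 0.322, 0.497 and 0.366 in Sirpa-KO and 0.244, 0.234 and 0.250 in Sirpa-WT. In the deep library Itgb1 (299 CPM per kb) and Mcam (96.3) also led, followed by Cd44 (42.9), Itga6 (24.0) and Itga4 (18.4), with Itgav sixth at 7.24.

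The deep library set the members apart from each other. Its log2 ratio to the shallow libraries (log2 CPM less the mean of their log2 CPM) had a median of 0.42 over all genes tested and 0.96 over the protein-coding ones. Itgav stood at -1.28, at the 9.9th percentile of the protein-coding genes tested, while the other tested members stood above the median, from Itgb1 at 1.53 and Mcam at 1.61 to Cd44 at 2.13, Itga4 at 2.35 and Itga6 at 2.45. The rare members also stood above it, from Itga5 at 1.37 to Alcam at 3.39. With the trend on this ratio removed from each shallow library, Mcam was 0.69 ± 0.22 (SE; edgeR adjusted p = 0.0712), Itga4 0.79 ± 0.30 (edgeR adjusted p = 0.178) and Cd44 0.41 ± 0.27 (edgeR adjusted p = 0.568), so no member was called, against 1.89% of all genes (0.635% higher). In the same fit edgeR still called the melanocyte markers Dct, Mitf and Pmel lower, and no other tested melanocyte marker. Their log2 fold changes there were -0.74 (edgeR adjusted p = 2.76e-18), -0.66 (0.000193) and -0.51 (0.000627). The trend is built on a library labelled Sirpa-KO, and whether it comes from that library's RNA or its processing was not tested.

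**Figure D4:**
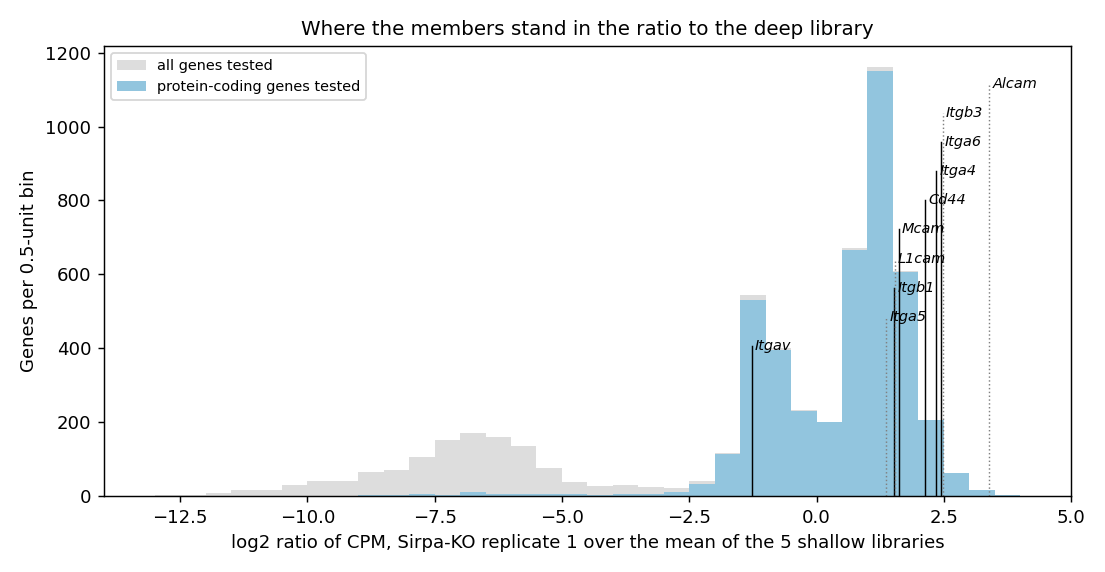
Number of genes (vertical axis) by log2 ratio of Sirpa-KO replicate 1 to the 5 shallow libraries (horizontal axis), for all genes tested over 5 libraries and the protein-coding ones. The ratio is log2 CPM in Sirpa-KO replicate 1 less the mean of log2 CPM in the shallow libraries. Lines mark the members, dotted where a member was not tested. Itgav, at -1.28, lies in the lower hump of protein-coding genes and the other 9 members, at 1.37 to 3.39, in the upper one.

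The other integrin chains were scarce. Of 20 further subunit genes, 16 had at most 3 counts in every shallow library and 1, Itgb5, was tested. Itgb5, a β partner of αv, had 29.8, 47.2 and 68 CPM in Sirpa-KO, against 68, 55.3 and 92.6 CPM in Sirpa-WT, a log2 change of -0.43 ± 0.29 (SE; edgeR adjusted p = 0.417). Per kb it stood at 8.85, 14.1 and 20.2 CPM in Sirpa-KO and 20.2, 16.4 and 27.6 CPM in Sirpa-WT, above Itgb3 in every library. Like Itgav, it had a low ratio in the deep library (-1.11). Itga1, a collagen-binding chain, and Itga9, a relative of Itga4, had at most 5 counts in any shallow library, and 26.8 and 19.95 CPM in the deep one. Itgam, a leukocyte integrin chain that is also among the leukocyte markers, ran the other way, with 0.0335, 14.8 and 24.5 CPM in Sirpa-KO, from 1, 5 and 9 counts, against 7.29, 20.4 and 14.5 CPM in Sirpa-WT, from 3, 7 and 5 counts.

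Inside the cell, most of the measured genes that link integrins to actin were uncalled. Of 41 adaptor and focal adhesion genes, 14 were tested over 5 libraries by edgeR. Among these 1 rose, none fell and 13 stayed uncalled, where 1.32% of all genes tested rose and 4.52% fell. The median log2 fold change was 0.37 against 0.013 for all genes tested, with 12 of 14 above 0. With the trend removed, the median was 0.16 and 9 of 14 lay above 0, and over 6 libraries the median was 0.75 against 0.11 for all genes. The gene that rose was Actn4, an actin crosslinker at adhesion sites, with 490, 162 and 204 CPM in Sirpa-KO against 80.2, 102 and 116 CPM in Sirpa-WT (0.78 ± 0.21, SE; edgeR adjusted p = 0.00666). Ptk2, which encodes focal adhesion kinase, had 148, 514 and 506 CPM in Sirpa-KO and 663, 582 and 582 CPM in Sirpa-WT, and missed the threshold (-0.38 ± 0.13, SE; edgeR adjusted p = 0.0511). With the trend removed, Ptk2 stood at -0.12 (edgeR adjusted p = 0.749). The talin gene Tln1 lay at 0.044 ± 0.14 and the kindlin gene Fermt2 at 0.38 ± 0.23 (SE), neither called.

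Outside the cell, 3 of 34 ligand genes found in the files were tested, and 1 fell, where 4.52% of all genes tested over 5 libraries fell. Their median log2 fold change was 0.38, with the trend removed 0.16, and over 6 libraries 0.95 against 0.11 for all genes. Mfge8, an RGD-bearing ligand of αv integrins, had 47.0, 62.0 and 70.7 CPM in Sirpa-KO, against 121, 96.0 and 107 CPM in Sirpa-WT (-0.83 ± 0.26, SE; edgeR adjusted p = 0.0299). Fn1, which encodes fibronectin, a ligand of both α4 and α5 integrins, had 181, 38.4 and 68 CPM in Sirpa-KO, against 29.1, 20.4 and 17.4 CPM in Sirpa-WT. Its genotypes did not overlap, where 26.3% of all genes tested stood higher in this way over 5 libraries and 20.4% over 6. It missed the threshold (1.11 ± 0.38, SE; edgeR adjusted p = 0.0523), and with the trend removed stood at 0.86 (edgeR adjusted p = 0.292).

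Of 35 other cell-cell adhesion genes, 5 were tested and 1 fell, where 4.52% of all genes tested over 5 libraries fell and 1.32% rose. The median was -0.14, with the trend removed 0.074, and over 6 libraries -0.39 against 0.11 for all genes. The gene that fell was Ctnnb1, whose product β-catenin anchors cadherins, with 1581, 2996 and 3182 CPM in Sirpa-KO and 3981, 3880 and 3675 CPM in Sirpa-WT (-0.44 ± 0.09, SE; edgeR adjusted p = 5.37e-05). Of 21 sheddase, linker and tetraspanin genes, 13 were tested and none was called by edgeR (median 0.060, 10 of 13 above 0). The balance of signs turned with the trend removed, to a median of -0.093 and 4 of 13 above 0, and over 6 libraries the median was 0.66. The most abundant, the CD44 linker gene Msn (moesin), stood at -0.28 ± 0.10 (SE; edgeR adjusted p = 0.0857). Of 15 other matrix receptor genes, 4 were tested, Hmmr rose and Rpsa fell (median 0.013, with the trend removed 0.037, over 6 libraries 0.51). Hmmr, a hyaluronan receptor that also acts at the spindle, had 246, 56.1 and 62.6 CPM in Sirpa-KO, against 21.9, 14.5 and 26.1 CPM in Sirpa-WT (1.37 ± 0.38, SE; edgeR adjusted p = 0.00843). Rpsa, the laminin receptor precursor and ribosomal protein, had 2359, 6750 and 6430 CPM in Sirpa-KO, against 7654, 8051 and 8488 CPM in Sirpa-WT (-0.41 ± 0.08, SE; edgeR adjusted p = 3.35e-05). Processed copies of it are known, with which reads can be shared, so its value is uncertain. With the trend removed, edgeR called none of these 5 list genes, with log2 fold changes of 0.54 for Actn4, -0.60 for Mfge8, -0.18 for Ctnnb1, 1.11 for Hmmr and -0.13 for Rpsa. Over 6 libraries edgeR called none either, at 1.35 for Actn4, -1.01 for Mfge8, -0.71 for Ctnnb1, 2.38 for Hmmr and -0.78 for Rpsa. There limma voom called Mfge8 (adjusted p = 0.00842) and Itgb5 (adjusted p = 0.0207), both lower. These were 2 of 40 list genes tested, where limma voom called 23.8% of all 5397 genes, 1266 of them lower.

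**Figure D5:**
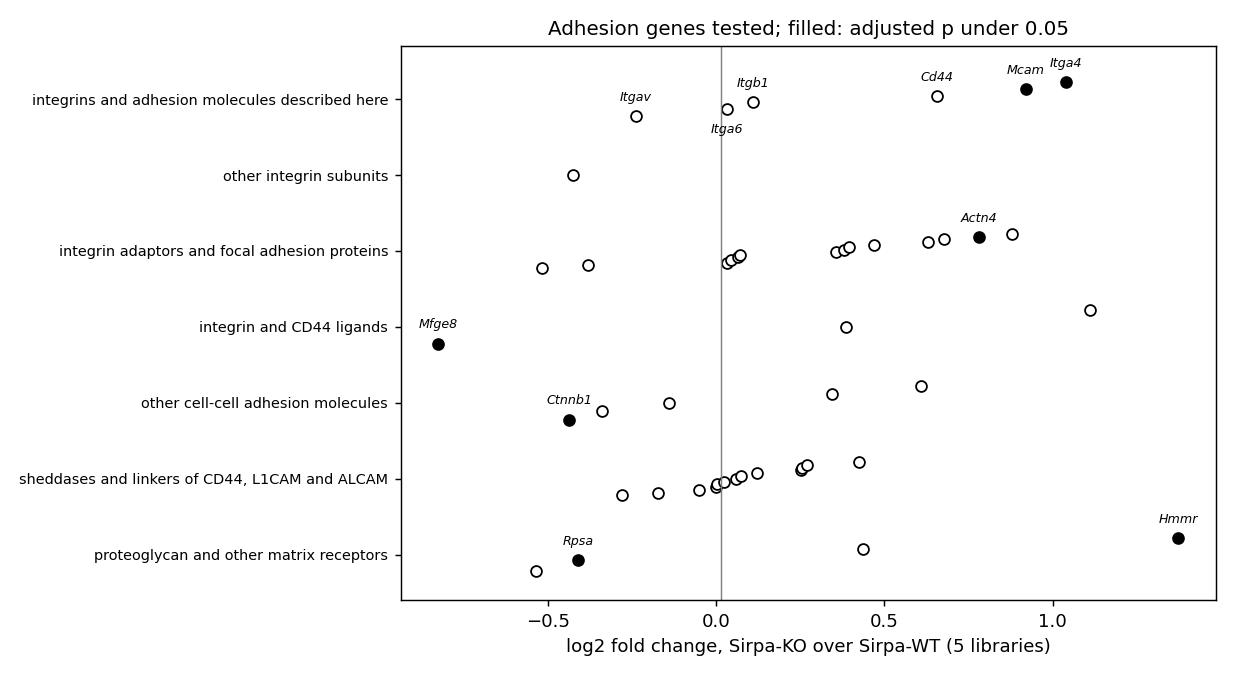
Log2 fold change of Sirpa-KO over Sirpa-WT (horizontal axis, 5 shallow libraries) for each gene tested in the 7 groups of adhesion genes, 1 point per gene, filled where the edgeR adjusted p is under 0.05. The vertical line is the median of all genes tested, 0.013. Called genes lie to the right for Mcam, Itga4, Actn4 and Hmmr and to the left for Mfge8, Ctnnb1 and Rpsa.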

How the data were processed

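RNA was measured in 6 libraries by poly(A)-selected, stranded sequencing (TruSeq kit, per the labels' protocols). The deposited values are unnormalized fragment counts for each gene. Per the file headers, they come from featureCounts 1.5.1 run in paired mode on exons of the Ensembl release 75 annotation of GRCm38, with no strand option. Subread and STAR 2.6.0 are listed in the submitters' processing notes.

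Symbols were matched by gene identifier to GENCODE mouse release M21 (37607 of 39179 genes). Levels were given as CPM, counts scaled to a common library total, and between genes as CPM per kb of the exon length in the files. A floor of 3 counts equals 7.29 to 8.85 CPM in the shallow libraries and 0.100 CPM in Sirpa-KO replicate 1. Intervals and floors cover counting error only. No replicates were merged in the fits, since shallow pairs of 1 genotype differed beyond counting noise (chi-square over its degrees of freedom, 1.15 to 1.45). For the exact ratios the shallow counts of each genotype were pooled, so their intervals leave out this spread between libraries.

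Genes were filtered with filterByExpr (minimum count 10), scaled by TMM and put through the 2-sided quasi-likelihood test of edgeR (glmQLFit, robust). Benjamini-Hochberg adjustment ran over every gene in the fit, calls were made under 0.05, and fits were made over 6 libraries and over the 5 without Sirpa-KO replicate 1. Members below the filter were described by the exact (Clopper-Pearson) ratio of their pooled shallow counts and by an unfiltered fit. The versions were DESeq2 1.42.0, limma 3.58.1 and edgeR 4.0.16 under R 4.3.3. Alternatives were RLE and library-size scaling, no filter, DESeq2, limma voom, the replicate number as a block, leaving out each library, and, over 5 libraries, removal from each library of a lowess trend (span 0.3) on the log2 ratio of Sirpa-KO replicate 1 to the others. Restriction to protein-coding genes was added after seeing the data. The members, the lists, the 5-library comparison and the tests were chosen with earlier results of these data known. The genes named are all members, Sirpa and, from each list, the called genes (up to 4) or else the most abundant one tested; others named were chosen after their values were seen. Promoter windows came from RefSeq (GRCm38.p6).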

Additional observations from a re-analysis of the deposited data

How the results depend on the processing

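Over 6 libraries the count of 0 genes called by edgeR (344 at an unadjusted p under 0.05) became 1 with DESeq2 and 1283 with limma voom (17 higher, 1266 lower). For the members, limma voom gave 1, and for the other adhesion lists 2 (Itgb5 and Mfge8, both lower). Leaving out 1 library at a time gave 0 to 322 genes, 0 to 2 members and 0 to 5 list genes, all upper values being those without Sirpa-KO replicate 1. Over 5 libraries the 322 calls became 132 with DESeq2, 196 in protein-coding genes and 104 with the trend removed. Library size alone gave 239 higher and 136 lower, against 73 and 249. The 2 members called became 1 without the count filter and 0 with the trend removed. The 5 genes called on the other adhesion lists became 3 with the replicate block and 0 with the trend removed. Leaving out 1 library at a time gave 125 to 351 genes, 0 to 2 members and 2 to 7 list genes. The gene count was 125 or 127 when Sirpa-KO replicate 2 or 3 was dropped, and 214 when it was Sirpa-WT replicate 2. DESeq2 gave no adjusted p for Mcam (unadjusted 0.00429) or Itga4 (unadjusted 0.0217) over 5 libraries, nor for Actn4, Mfge8 and Hmmr, so it gives no member or list count there. The cause of these differences was not tested.

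Over its alternatives in the 5-library comparison Mcam ran from 0.69 to 1.04 (called in 10 of 12), Itga4 from 0.79 to 1.33 (6 of 12) and Cd44 from 0.41 to 0.86 (0 of 12). Directions turned only near 0: Itga6 stood at -0.004 without the filter, -0.21 with the replicate block and -0.22 with the trend removed, Itgb1 at -0.12 and Itgav at 0.036 with the trend removed. With each library left out, Itga6 ran from -0.20 to 0.30 and Itgb1 from -0.0072 to 0.18. Replicate numbers come from the titles, which state no pairing between the genotypes. Deviations of same-numbered libraries correlated at -0.042 to 0.058 over 6 libraries, and those of different-numbered ones at -0.063 to 0.065. They were taken from genotype means that include the deep library, so they cannot show whether libraries were paired. With the replicate block, 316 genes were called over 5 libraries and 0 over 6, with Mcam at 0.94 and Itga4 at 1.33, both called over 5. At the depth of the shallow libraries, 4 of the 10 members stay under the count filter.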
